A study of Mus musculus with 30 samples.

Results

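The expression of 6 genes, Hrsp12, Aox1, Oat, Sec14l2, Fggy and Entpd2, was followed in the hippocampus of BALB/c mice fed methylmercury (MeHg). They are 6 of the 21412 genes measured, and they had been put together as metabolic enzymes whose RNA is higher at the high MeHg dose, so a difference between high-dose and control mice chose them. Which contrasts were used, and on which diet, is not recorded, so the difference between HD and Ctr mice is described here without a test. The name does not hold for every gene. Fggy was lower in high-dose than in control mice on the diet without selenium, and Sec14l2 codes for a lipid-binding protein rather than an enzyme. Hrsp12, Oat, Sec14l2 and Entpd2 also belong to a list that the study drew from these same libraries.

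RNA from the hippocampus of 30 male BALB/c mice was sequenced as 1 library per mouse, with 5 mice in each of 6 treatment groups. Ctr mice received unspiked feed with cysteine, LD mice feed with 0.28 mg MeHg per kg and HD mice feed with 5 mg MeHg per kg, given as its cysteine complex, for 11 weeks. The Se_Ctr, Se_LD and Se_HD groups carry the same names with a selenium prefix, and the title of the series names selenium-methionine. Their selenium and MeHg contents are not given in the sources used here, so it is not known that Se_LD and Se_HD feed matched LD and HD feed. All values are normalized counts, the reads on a gene divided by a size factor for each library. Between 5768208 and 11510521 reads fell on genes per library, with group medians from 7119788 in Ctr to 10159514 in HD mice. All 8 neuron, 11 astrocyte and 9 oligodendrocyte markers were detected in each group, whereas the summed level of 9 choroid plexus markers ranged from 313 to 38061 between single mice, so the dissections differed in how much of that neighbouring tissue they held or in its RNA. In whole tissue, fewer cells of a type and less RNA per cell cannot be told apart.

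MeHg is an organic form of mercury that enters the brain bound to cysteine and attaches to thiol and selenol groups of proteins, which is why selenium is studied beside it. The genes act in separate steps of metabolism. Hrsp12, now named Rida, codes for a deaminase that clears reactive imines released by vitamin B6-dependent enzymes of amino acid catabolism. Aox1 codes for aldehyde oxidase, a molybdenum enzyme that oxidizes aldehydes and nitrogen heterocycles and passes electrons to oxygen. Oat codes for mitochondrial ornithine aminotransferase, which links ornithine to proline and glutamate. Sec14l2 codes for a carrier of tocopherol and other lipids, Fggy for a kinase of carbohydrates, and Entpd2 for a cell-surface enzyme that removes phosphate from extracellular ATP.

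The genes lie on 6 chromosomes of build NCBIM37, and all are annotated as protein coding. Hrsp12 (ENSMUSG00000022323) covers chr15:34413776-34425010 on the minus strand and Aox1 (ENSMUSG00000063558) covers chr1:58086775-58163257 on the plus strand. Oat (ENSMUSG00000030934) covers chr7:139749158-139768081 and Sec14l2 (ENSMUSG00000003585) chr11:3997042-4023418, both on the minus strand. Fggy (ENSMUSG00000028573) covers chr4:95224198-95593630 and Entpd2 (ENSMUSG00000015085) chr2:25251394-25256843, both on the plus strand. Entpd2 shares 612 exonic bases with Npdc1 on the same strand, so reads from that stretch cannot be assigned with certainty. Oat and Sec14l2 lie over other genes with 0 shared exonic bases.

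The 250 bases before the annotated 5′ end are shown for the 4 genes whose highest group mean was found in HD mice. They were read from build NCBIM37, on the strand of the gene and from 5′ to 3′. Capitals mark matches to 3 short motifs, searched on both strands. These were the core of the antioxidant response element (TGACNNNGC), the core of the metal response element (TGCACNC or TGCGCNC) and the AP-1 site (TGACTCA). The windows are chr15:34425011-34425260 (minus strand) for Hrsp12, chr1:58086525-58086774 (plus strand) for Aox1, chr7:139768082-139768331 (minus strand) for Oat and chr2:25251144-25251393 (plus strand) for Entpd2.
Hrsp12: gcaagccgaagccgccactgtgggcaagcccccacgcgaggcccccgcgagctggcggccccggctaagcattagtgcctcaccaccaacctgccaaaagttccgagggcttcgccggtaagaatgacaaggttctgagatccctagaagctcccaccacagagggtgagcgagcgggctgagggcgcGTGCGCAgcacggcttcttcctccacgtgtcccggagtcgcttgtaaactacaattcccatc
Aox1: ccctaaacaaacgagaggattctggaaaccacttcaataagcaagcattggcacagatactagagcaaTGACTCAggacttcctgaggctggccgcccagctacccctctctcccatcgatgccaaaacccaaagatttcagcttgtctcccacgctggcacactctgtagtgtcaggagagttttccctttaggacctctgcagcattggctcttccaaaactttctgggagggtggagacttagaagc
Oat: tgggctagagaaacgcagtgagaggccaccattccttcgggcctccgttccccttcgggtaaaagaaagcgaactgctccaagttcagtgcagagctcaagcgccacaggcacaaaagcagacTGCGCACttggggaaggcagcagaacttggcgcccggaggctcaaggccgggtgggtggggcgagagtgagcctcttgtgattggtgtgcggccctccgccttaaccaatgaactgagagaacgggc
Entpd2: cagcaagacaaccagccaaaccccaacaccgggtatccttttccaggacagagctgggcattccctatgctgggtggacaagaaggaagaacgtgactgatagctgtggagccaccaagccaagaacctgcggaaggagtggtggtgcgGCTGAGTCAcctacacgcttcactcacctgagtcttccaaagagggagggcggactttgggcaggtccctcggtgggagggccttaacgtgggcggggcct
Hrsp12 has 1 metal response element core on the reverse strand, 62 to 56 bases before the 5′ end, and Oat has 1 on the forward strand, 127 to 121 bases before it. Aox1 has 1 AP-1 site, 182 to 176 bases before the 5′ end. In Entpd2 an antioxidant response element core at 101 to 93 bases overlaps an AP-1 site at 99 to 93 bases. The window of Fggy holds 1 antioxidant response element core, 15 to 7 bases before the 5′ end, and that of Sec14l2 holds none of the motifs. Over 22380 windows of the same length, 23.5% held the metal response element core, 10.0% the antioxidant response element core and 3.85% the AP-1 site. The matches are letters in a window and were not tested as binding sites. Distances hold for the annotated 5′ end only. It coincided with a start in the RefSeq annotation for Oat and Entpd2 but not for Aox1. No RefSeq start was at hand for Hrsp12. The GC content was highest for Hrsp12, at 63.2%, and lowest for Aox1, at 50.8%, against a median of 54.0% over all windows.

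Per kilobase of exon, Oat had the highest level over the 30 libraries, with 360 normalized counts, followed by Sec14l2 with 135 and Hrsp12 with 119. Entpd2 had 22.0, Aox1 16.2 and Fggy 3.61 normalized counts per kilobase. The length used for Entpd2 includes the 612 bases shared with Npdc1, so its level per kilobase is uncertain. The precision follows these levels and the gene lengths. A library held 434 to 1140 reads on Oat and 190 to 755 on Hrsp12, but 64 to 298 on Aox1, 24 to 92 on Entpd2 and 4 to 26 on Fggy.

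**Figure D1:**
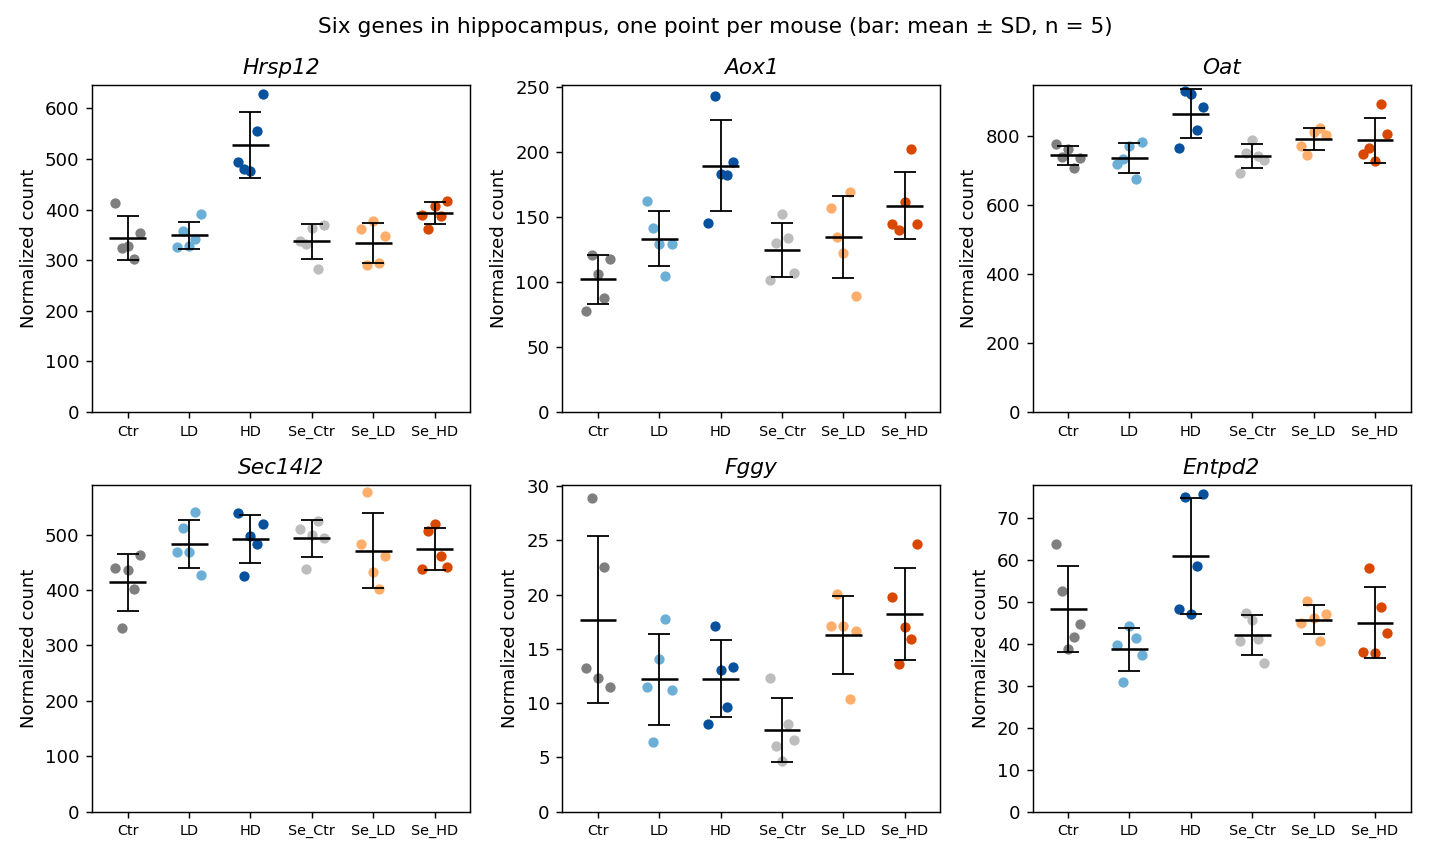
Normalized counts of the 6 genes in the 6 treatment groups, with 1 point per mouse and bars for the mean ± SD (n = 5); each vertical axis starts at 0. Hrsp12 stands highest in HD mice (477 to 629, against at most 413 in Ctr), and Fggy is lowest in Se_Ctr mice.

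Hrsp12 was highest in HD mice. In Ctr mice 1 to 5 its normalized counts were 413, 323, 328, 302 and 354, and in LD mice they were 325, 358, 328, 341 and 392. In HD mice they were 494, 481, 477, 556 and 629. All 5 HD mice therefore lay above every Ctr and every LD mouse, while Ctr and LD mice overlapped fully. The group means were 344 ± 42.8 (SD, n = 5) in Ctr, 349 ± 27.3 (SD, n = 5) in LD and 527 ± 65.2 (SD, n = 5) in HD mice. On the scale of log2(normalized count + 1), HD differed from Ctr mice by 0.61 (SE 0.11) and LD by 0.03 (SE 0.11). With each mouse left out in turn the HD difference lay between 0.55 and 0.68.

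In Se_HD mice the level of Hrsp12 was lower than in HD mice. Its normalized counts were 338, 332, 365, 282 and 370 in Se_Ctr mice 1 to 5, 362, 291, 377, 294 and 348 in Se_LD mice, and 390, 362, 408, 388 and 418 in Se_HD mice. Of the Se_HD mice, 4 lay above all Se_Ctr mice and 4 above all Se_LD mice. The contrasts among the selenium groups of this gene and of Aox1, Oat, Entpd2 and Sec14l2 were tested on the assumption that they did not choose the genes. If they did, as may hold for Fggy, their p-values are too small and the values are a description only. A gene was called when limma's F test over the 3 selenium groups and the contrast both had an unadjusted p under 0.05. Hrsp12 was called in Se_HD against Se_Ctr mice, with 393 ± 21.3 against 337 ± 34.8 (SD), a log2 difference of 0.22 with a 95% interval of 0.04 to 0.41. The exact permutation p was 0.0238 (two-sided), and the limma p adjusted over all genes was 0.9996. Of all genes tested, 2.06% were called in this comparison and 1.28% were called higher, so calls at this threshold are common. Against Se_LD mice the log2 difference was 0.24 (95% interval 0.06 to 0.42, exact permutation p = 0.0159, limma adjusted p = 0.947), where 2.47% of all genes were called. Se_LD and Se_Ctr mice differed by -0.01 (95% interval -0.20 to 0.17). The call against Se_Ctr was lost without Se_Ctr mouse 4 (log2 difference 0.16), Se_HD mouse 3 (0.21) or Se_HD mouse 5 (0.20). The call against Se_LD was lost without Se_HD mouse 3 (0.23) or 5 (0.22).

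All 5 Se_HD mice lay below all 5 HD mice for Hrsp12, with a log2 difference of -0.42 between the groups. This was the case for 0.901% of all genes. Since the HD level may have chosen the gene and the doses of the selenium groups are not given, the levels are set side by side only. The control groups of the 2 diets had 337 ± 34.8 in Se_Ctr and 344 ± 42.8 in Ctr mice (SD, n = 5).

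Aox1 showed the largest difference between HD and Ctr mice of the 6 genes. Its normalized counts were 77.3, 121, 106, 87.9 and 118 in Ctr mice 1 to 5, 162, 142, 129, 105 and 129 in LD mice, and 145, 243, 183, 182 and 192 in HD mice. Every HD mouse lay above every Ctr mouse, and 4 of 5 HD mice lay above every LD mouse. The LD mice were in between, with 4 of 5 above all Ctr mice. The means were 102 ± 18.9 in Ctr, 133 ± 20.9 in LD and 189 ± 35.1 in HD mice (SD, n = 5), and the log2 differences from Ctr were 0.39 (SE 0.16) for LD and 0.89 (SE 0.16) for HD. Hrsp12 and Aox1 were the 2 of 6 genes whose HD mice all lay above all Ctr mice, a pattern found for 0.978% of all genes. As the genes may have been chosen on this contrast, nothing is read from that count.

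In the selenium groups the mean of Aox1 lay above that of Ctr mice in Se_Ctr and below that of HD mice in Se_HD, with overlap in both cases and no test between the diets. Se_Ctr mice 1 to 5 had 102, 130, 152, 134 and 107 normalized counts, Se_LD mice 157, 135, 123, 169 and 88.9, and Se_HD mice 145, 140, 161, 203 and 145. The 3 groups overlapped, and the lowest Se_HD mouse (140) lay below 1 Se_Ctr mouse. The Se_HD mean of 159 ± 25.9 exceeded the Se_Ctr mean of 125 ± 20.8 (SD) by 0.35 on the log2 scale, with a 95% interval of 0.02 to 0.67. The exact permutation p was 0.0476 (limma p adjusted over all genes 0.9996), and the gene was not called, because the F test over the 3 groups had a p of 0.0897. With the library set as a block it was called (limma adjusted p = 0.9995). Aox1 was called without Se_Ctr mouse 3 (log2 difference 0.42) and without Se_LD mouse 4 or 5, which leave the difference at 0.35 and alter the F test. Se_LD and Se_Ctr mice differed by 0.09 (95% interval -0.23 to 0.41), and 1.46% of all genes were called in that contrast. Se_HD and Se_LD mice differed by 0.26 (95% interval -0.06 to 0.58, exact permutation p = 0.222), and this contrast was called without Se_LD mouse 4 (0.35), while the difference fell to 0.12 without Se_LD mouse 5 and 0.17 without Se_HD mouse 4.

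Oat, the most abundant of the genes, moved over a narrow range. Its normalized counts were 775, 738, 762, 705 and 735 in Ctr mice 1 to 5, 717, 731, 771, 675 and 780 in LD mice, and 765, 930, 920, 817 and 883 in HD mice. The 4 HD mice other than mouse 1 lay above every Ctr and LD mouse. The mean was 863 ± 70.6 in HD, 743 ± 26.8 in Ctr and 735 ± 42.7 in LD mice (SD, n = 5), and the log2 difference of HD from Ctr mice was 0.21 (SE 0.08). In the selenium groups the normalized counts were 691, 750, 786, 742 and 729 in Se_Ctr, 771, 744, 809, 821 and 803 in Se_LD and 747, 765, 725, 890 and 806 in Se_HD mice. These groups overlapped, and Oat was called in none of the 3 contrasts among them. Se_HD exceeded Se_Ctr mice by 0.09 (95% interval -0.05 to 0.22, exact permutation p = 0.206), or by 0.04 without Se_HD mouse 4, and Se_LD exceeded Se_Ctr mice by 0.09 (95% interval -0.04 to 0.23, exact permutation p = 0.0556). These intervals do not leave out a difference as large as that between HD and Ctr mice.

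Entpd2 was highest in HD and lowest in LD mice. Its normalized counts were 64.0, 52.7, 38.7, 41.7 and 44.8 in Ctr mice 1 to 5, 39.7, 30.9, 44.4, 41.5 and 37.3 in LD mice, and 48.4, 75.1, 47.1, 58.7 and 75.8 in HD mice. All 5 HD mice lay above all LD mice, but only 2 lay above all Ctr mice. Hrsp12 and Entpd2 were the 2 of 6 genes with HD mice all above LD mice, which held for 0.869% of all genes. As the level in HD mice may have chosen the genes, nothing is read from this count either. Means were 48.4 ± 10.2 in Ctr, 38.8 ± 5.11 in LD and 61.0 ± 13.9 in HD mice (SD, n = 5). The log2 difference from Ctr mice was 0.32 (SE 0.20) for HD and -0.30 (SE 0.20) for LD. Of the spread in HD mice, with a coefficient of variation of 22.8%, counting error alone would give 12.0%.

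Among the selenium groups Entpd2 was nearly level. The normalized counts were 40.8, 47.5, 45.7, 41.2 and 35.6 in Se_Ctr, 45.1, 50.2, 46.1, 40.6 and 47.2 in Se_LD and 38.1, 58.1, 37.8, 48.9 and 42.7 in Se_HD mice. The groups overlapped throughout. Se_HD and Se_Ctr mice differed by 0.08 (95% interval -0.23 to 0.40, exact permutation p = 0.587), an interval that still holds the difference of 0.32 between HD and Ctr mice. Without Se_HD mouse 2, which had the highest level, the difference was -0.01. Se_LD exceeded Se_Ctr mice by 0.12 (95% interval -0.19 to 0.43, exact permutation p = 0.238).

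Sec14l2 had its lowest mean in Ctr mice, but Ctr mice overlapped with every other group. Its normalized counts were 440, 332, 436, 401 and 463 in Ctr mice 1 to 5, 469, 511, 468, 542 and 428 in LD mice, and 539, 425, 497, 484 and 519 in HD mice. In each of LD and HD, 4 of 5 mice lay above all Ctr mice. The means were 414 ± 51.1, 484 ± 43.8 and 493 ± 43.4 (SD, n = 5) in Ctr, LD and HD mice. The log2 difference from Ctr was thus 0.23 (SE 0.10) at the low dose and 0.26 (SE 0.10) at the high dose, and HD and LD mice differed by 0.03. Se_Ctr mice, with no MeHg in their name, had 511, 438, 499, 525 and 494 normalized counts, and 4 of them lay above all Ctr mice too. Se_LD mice had 484, 578, 432, 402 and 461, and Se_HD mice 438, 508, 519, 461 and 441. Sec14l2 was not called among the selenium groups, where Se_HD differed from Se_Ctr mice by -0.06 (95% interval -0.24 to 0.12, exact permutation p = 0.421) and Se_LD by -0.07 (95% interval -0.26 to 0.11, exact permutation p = 0.476). The interval for Se_HD does not reach the difference of 0.26 seen in HD mice, but the 2 differences were not compared by a test, because the HD contrast may have chosen the gene.

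Fggy had a lower mean in HD than in Ctr mice on the diet without selenium. Its normalized counts were 13.3, 28.9, 12.3, 22.5 and 11.5 in Ctr mice 1 to 5, 11.5, 6.44, 14.1, 17.8 and 11.2 in LD mice, and 8.07, 17.1, 13.1, 9.64 and 13.3 in HD mice. The groups overlapped, and no HD mouse lay above all Ctr mice. The mean was 17.7 ± 7.69 in Ctr, 12.2 ± 4.17 in LD and 12.3 ± 3.54 in HD mice (SD, n = 5), a log2 difference of -0.45 (SE 0.33) for HD. With each mouse left out it ran from -0.57 to -0.26, the latter without Ctr mouse 2, which had the highest level. In the selenium groups the normalized counts were 12.3, 6.05, 4.69, 8.06 and 6.62 in Se_Ctr, 17.1, 20.1, 17.1, 10.3 and 16.7 in Se_LD and 19.8, 13.6, 17.0, 15.9 and 24.7 in Se_HD mice. All 5 Se_HD mice and 4 of 5 Se_LD mice lay above all Se_Ctr mice. The log2 difference from Se_Ctr was 1.20 (95% interval 0.65 to 1.75) for Se_HD and 1.05 (95% interval 0.49 to 1.60) for Se_LD mice. Se_HD and Se_LD mice differed by 0.16 (95% interval -0.40 to 0.71), an interval too wide to show whether there was a further step. Fggy was called by the rule above in both contrasts, and it was the 1 gene of 6 whose Se_HD mice all lay above all Se_Ctr mice, against 0.478% of all genes. Of the comparisons of a high dose with its control, Fggy was higher only in Se_HD against Se_Ctr mice. That contrast may be what placed Fggy in the list, and the calls of this gene are given as a description.

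The level of Fggy rests on few reads. The 5 Se_Ctr libraries held 41 reads on it in all and the 5 Se_HD libraries 95. In Se_Ctr mice the coefficient of variation was 38.9% where counting error alone would give 34.9%, and in Se_HD mice it was 23.4% against 22.9%. The difference between these groups also follows a low Se_Ctr level. Se_Ctr mice had 7.55 ± 2.94 against 17.7 ± 7.69 (SD, n = 5) in Ctr mice, with 4 of 5 Se_Ctr mice below all Ctr mice, while the Se_HD mean of 18.2 ± 4.25 was close to that of Ctr mice.

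**Figure D2:**
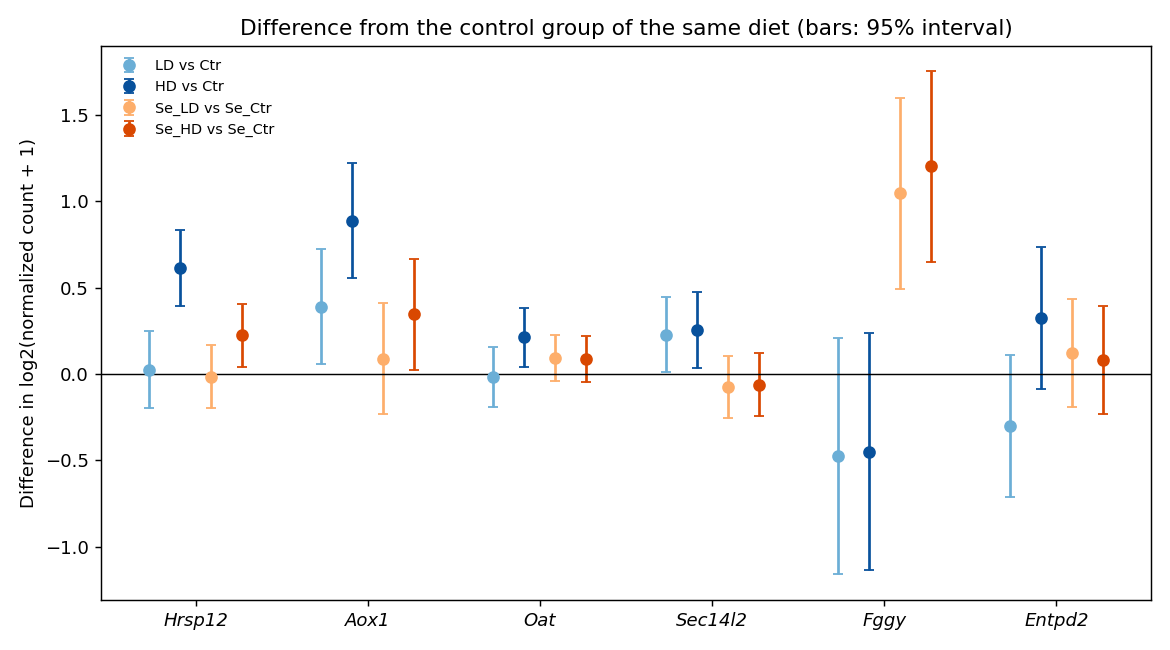
Difference of each MeHg group from the control group of its own diet in log2(normalized count + 1), with points for the estimate and bars for the 95% interval (5 mice per group). Hrsp12 and Aox1 show the highest HD values (0.61 and 0.89), Sec14l2 lies at 0.23 and 0.26 in LD and HD and near 0 with selenium, and Fggy is above 0 in the selenium groups only.

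The plot of differences from control shows 4 patterns over the 6 genes. Hrsp12, Oat and Entpd2 had higher means in HD mice, by 0.61, 0.21 and 0.32, and differences of 0.03, -0.02 and -0.30 in LD mice. Aox1 had higher means at both doses, and so did Sec14l2, by about the same amount. Fggy had lower means at both. Of the 6 genes, 5 had a higher mean in HD than in Ctr mice, and the median difference was 0.29 against 0.01 over all genes tested, as the choice of genes may fix. In LD against Ctr mice 3 of 6 were higher, with a median of 0.00. In Se_HD against Se_Ctr mice 5 of 6 were higher, with a median of 0.16 against -0.01 over all genes. In Se_LD against Se_Ctr mice 4 of 6 were higher, with a median of 0.09 against 0.00. Without Fggy, which these contrasts may have placed among the genes, 4 of 5 were higher in Se_HD and 3 of 5 in Se_LD mice, with a median of 0.09 in each. The comparisons within a diet share their control mice.

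Ordered by mean log2 level, HD mice came first for Hrsp12, Aox1, Oat and Entpd2. Se_HD mice came second for Hrsp12 and Aox1, and Se_LD mice second for Oat. For Hrsp12, LD, Ctr, Se_Ctr and Se_LD mice followed within the spread between mice. For Oat the same held for Ctr, Se_Ctr and LD mice. For Sec14l2 the order was Se_Ctr, HD, LD, Se_HD, Se_LD and Ctr, and the first 5 groups overlapped. For Entpd2 the 4 groups between HD and LD overlapped with each other, and for Fggy the order ran from Se_HD to Se_Ctr with Ctr in second place. The distance between the highest and lowest group means was 0.66 on the log2 scale for Hrsp12 against a pooled SD within groups of 0.15. It was 0.89 against 0.27 for Aox1, 0.62 against 0.23 for Entpd2 and 1.20 against 0.44 for Fggy. For Oat (0.23 against 0.09) and Sec14l2 (0.26 against 0.15) it was smaller.

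The genes varied together only in part. Over the 30 libraries, Pearson's r of log2 levels was 0.65 between Aox1 and Oat, 0.60 between Hrsp12 and Oat, 0.58 between Oat and Entpd2, and 0.55 between Hrsp12 and Entpd2. After the group means were taken out, r fell to 0.43 for Aox1 and Oat, 0.16 for Hrsp12 and Oat, 0.31 for Oat and Entpd2 and 0.18 for Hrsp12 and Entpd2. Hrsp12 and Aox1 had r = 0.48 over all libraries and -0.23 after the group means were taken out. Fggy stayed between -0.36 and 0.23 with the other genes over both measures, and Sec14l2 had its most negative value within groups with Oat (-0.45). These values describe 30 libraries that share the group differences, and no test was made on them.

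Markers of other cell types also differed between the groups. In HD against Ctr mice, 12 of 12 microglia markers were called higher, and their summed level was 4113 to 10207 in HD against 3185 to 3467 in Ctr mice. Of the astrocyte markers 4 of 11 and of the reactive astrocyte markers 8 of 10 were called higher, where 3.36% of all genes were called higher. DESeq2 called 4 of the 10 reactive astrocyte markers. HD mouse 2 stood apart in these markers, with a summed level of 45055 against 5664 to 14615 in the other HD mice. Without it, limma called 11 of 12 microglia, 3 of 11 astrocyte and 4 of 10 reactive astrocyte markers higher, where 2.31% of all genes were called higher. The HD differences of the 6 genes without this mouse were 0.65 for Hrsp12, 0.79 for Aox1, 0.18 for Oat, 0.31 for Sec14l2, -0.57 for Fggy and 0.24 for Entpd2. None of these markers was at 0 in all mice of a group. Over the 30 libraries Hrsp12 had r = 0.76 with the microglia score, the mean log2 level of these markers, and r = 0.21 after the group means were taken out. With each library left out in turn the latter ran from 0.03 (without HD mouse 5) to 0.46 (without HD mouse 2). In HD mice 1 to 5 the summed microglia markers were 4782, 10207, 4113, 5587 and 8529, beside Hrsp12 levels of 494, 481, 477, 556 and 629. Apart from mouse 2, with the highest marker level and the second lowest Hrsp12 level, the mice came in the same order by both. Hrsp12 also had r = 0.70 with the astrocyte score and 0.58 with the reactive astrocyte score, against 0.24 and -0.12 within groups. These within-group values ran from 0.11 (without Ctr mouse 1) to 0.39 and from -0.24 (without HD mouse 3) to 0.09, both highest without HD mouse 2. Entpd2 had r = 0.71 with the microglia score and 0.57 after the group means were taken out. With microglia markers over all libraries, r was 0.16 for Sec14l2, or 0.36 without HD mouse 2, and 0.01 for Fggy. In Se_HD against Se_Ctr mice, where Hrsp12 was called, 0 of 12 microglia markers were called by limma, by edgeR or by DESeq2 and 0 had an unadjusted contrast p under 0.05 in limma, with summed levels of 3312 to 3944 against 3112 to 3750, and 3 of 9 reactive astrocyte markers were called higher, where 1.28% of all genes were called higher. There, 6 of 10 meninges and fibroblast markers were called higher as well, at 5308 to 7766 against 1915 to 4576. The part of these cells in the differences of the 6 genes was not tested.

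Aox1 had r = 0.69 with the reactive astrocyte markers over all libraries and 0.55 after the group means were taken out, and with microglia markers it had 0.59 and 0.26, or 0.46 and 0.07 without HD mouse 2. Its r with the 5 ependyma markers was 0.64 over all libraries and 0.57 after the group means were taken out, which fell to 0.37 without Se_LD mouse 5, and with the 9 choroid plexus markers it was 0.58 and 0.59. In HD against Ctr mice 4 of 5 ependyma markers were called higher, with summed levels of 267 to 412 against 82.1 to 330, where 3.36% of all genes were called higher. In LD against Ctr mice, where the mean of Aox1 was higher by 0.39, 2 of 5 ependyma markers were called higher, with summed levels of 167 to 367. There, 0.819% of all genes were called higher and 1.46% in either direction. EdgeR and DESeq2 each called 3 of the 5 ependyma markers in HD and 1 in LD against Ctr mice. In HD against Ctr mice all 9 choroid plexus markers had positive differences, 0 were called by limma, by edgeR or by DESeq2 and 2 had an unadjusted contrast p under 0.05 in limma, and their summed levels, 7067 to 29857 in HD and 852 to 31570 in Ctr mice, overlapped. In Se_HD against Se_Ctr mice these lists had no call, and their summed levels were 195 to 418 against 183 to 280 for ependyma and 9488 to 35118 against 6346 to 21440 for choroid plexus. The mouse with the lowest Aox1 level also had the lowest ependyma markers in Ctr (mouse 1, 82.1) and Se_LD (mouse 5, 54.6), but not in the other 4 groups. In Se_HD the mouse with the lowest Aox1 level, mouse 2, had the highest ependyma markers (418). The part of glia, ependyma and choroid plexus in the Aox1 difference was not tested.

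Oat and Sec14l2 lay on opposite sides of the neuron markers. Oat had r = -0.71 with the 8 neuron markers over all libraries and -0.63 within groups, whereas Sec14l2 had 0.52 and 0.72. A negative r was not particular to Oat. Aox1 had -0.53 and -0.54, Hrsp12 -0.45 and -0.22, Entpd2 -0.46 and -0.19, and Fggy -0.19 and -0.16. Oat also had r = 0.68 with astrocyte, 0.62 with microglia, 0.60 with reactive astrocyte and 0.54 with endothelium markers, against 0.44, 0.24, 0.31 and 0.56 within groups. Within groups the microglia value ran from 0.07 (without HD mouse 2) to 0.51 (without HD mouse 3) and the reactive astrocyte value from 0.12 to 0.48 without the same mice. Sec14l2 also had r = -0.57 within groups with the meninges and fibroblast markers. In HD against Ctr mice 1 of 8 neuron markers was called, in the direction of a lower level, where 1.73% of all genes were called lower. The summed neuron levels were 43008 to 66015 in HD and 54178 to 63888 in Ctr mice. For Fggy the value farthest from 0 was -0.42, with the oligodendrocyte markers within groups. Whether these cells contribute to the differences was not tested.

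**Figure D3:**
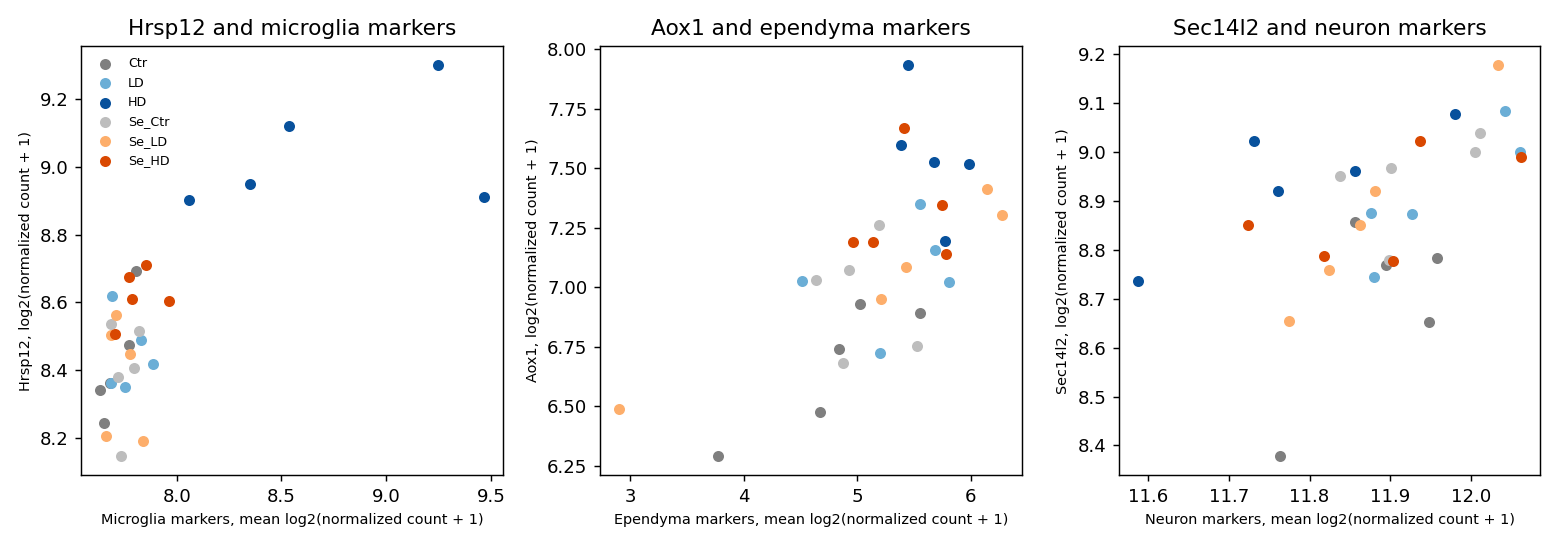
Log2 level of 3 genes against the mean log2 level of a marker list, with 1 point per mouse coloured by group (30 mice). Hrsp12 rises with microglia markers between HD mice and the others, Aox1 with ependyma markers also within groups (r = 0.57 of the deviations, 0.37 without Se_LD mouse 5), and Sec14l2 with neuron markers (r = 0.72 of the deviations).

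Genes with the most similar levels were found among the 11097 genes whose normalized counts averaged 50 or more. For Hrsp12 they were Mpeg1 (r = 0.80), Sparc (0.80) and Gstm1 (0.79) over the 30 libraries, and Ilkap (0.72), Hbxip (0.71) and Ociad1 (0.66) for deviations from the group means. Mpeg1 is a macrophage gene and Gstm1 a glutathione transferase. For Entpd2 they were Grn (0.80), Trem2 (0.80) and Rps6ka1 (0.78), of which Trem2 is a receptor of microglia, and within groups Tril (0.78), Rps6ka1 (0.72) and Npr2 (0.70). The 2 sets for Hrsp12 had no gene in common, while those for Entpd2 shared Rps6ka1.

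For Aox1 the nearest genes were Lamp2 (r = 0.81), Rarres2 (0.77) and Dbi (0.76), and within groups Glb1l (0.77), Parp4 (0.74) and Dab2 (0.72). For Oat they were Prdx6 (0.79), a peroxidase, Vwa5a (0.76) and Cyp2d22 (0.75), and within groups Mtmr10 (0.71), Zc3h11a (0.67) and Myo1c (0.67). Sec14l2 had the closest neighbours of all within groups, with Dgkz (0.91), Git1 (0.90) and Cacnb1 (0.90), and over all libraries Lrrc10b (0.81), Mark4 (0.80) and Snn (0.79). Dgkz is a diacylglycerol kinase and Cacnb1 a calcium channel subunit. Fggy had none above 0.57 over all libraries (Ppp1r15b) or 0.66 within groups (Exog). These r describe likeness over 30 libraries of unequal depth and say nothing of shared function.

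Other genes of the same pathways were listed to set beside the 6 genes. Around Hrsp12, 1 of 23 tested genes of branched-chain and serine or threonine catabolism was called in HD against Ctr mice. It was Bckdhb, a subunit of the branched-chain keto acid dehydrogenase, with 92.8 ± 9.48 against 113 ± 4.19 normalized counts (SD, n = 5), a log2 difference of -0.29 (limma adjusted p = 0.529). Around Aox1, 1 of 11 genes of the aldehyde oxidase family and the molybdenum cofactor was called. This was Xdh, xanthine dehydrogenase, with 79.5 ± 57.2 against 40.5 ± 10.3 (SD, n = 5) and a log2 difference of 0.78 (limma adjusted p = 0.454). Aox4, a paralog of Aox1 like Aox3, differed by 0.03 and Aox3 by 0.21, and neither was called. Around Oat, 2 of 22 genes of ornithine, proline and polyamine metabolism were called, both lower. Ass1, argininosuccinate synthase, had 63.6 ± 9.06 against 91.1 ± 8.05 normalized counts (SD, n = 5, log2 difference -0.52, limma adjusted p = 0.24). Without HD mouse 2, Bckdhb (-0.25) and Xdh (0.44) were not called and Ass1 (-0.44) was. Odc1, which competes with Oat for ornithine, was not called (0.27). In this comparison 5.09% of all genes were called in either direction.

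Around Sec14l2, 0 of 10 genes of SEC14-like and tocopherol transfer proteins were called by limma, by edgeR or by DESeq2, and 0 had a contrast with an unadjusted p under 0.05 in limma. The median difference was -0.14 against 0.01 over all genes. Ttpa, the tocopherol transfer protein, had 27.0 ± 12.8 in HD and 33.2 ± 13.0 normalized counts in Ctr mice (SD, n = 5). Around Fggy, 0 of 14 genes of FGGY kinases and the pentose phosphate pathway were called by limma, by edgeR or by DESeq2, and 1 had a contrast with an unadjusted p under 0.05 in limma. Around Entpd2, 1 of 12 ectonucleotidases was called, Entpd1, which degrades extracellular ATP and ADP. Its level was 172 ± 19.0 in HD against 128 ± 19.4 normalized counts in Ctr mice (SD, n = 5), a log2 difference of 0.43 (limma adjusted p = 0.274).

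Of 17 purine receptors tested, 5 were called higher in HD mice and 0 lower. In this comparison 3.36% of all genes were called higher, as were 12 of 12 microglia markers. P2ry13 rose from 82.3 ± 24.2 to 132 ± 16.0 normalized counts (SD, n = 5, log2 difference 0.71, limma adjusted p = 0.147). P2rx5 differed by 0.97, P2ry6 by 0.62, P2rx7 by 0.40 and P2ry12 by 0.36, with limma adjusted p from 0.354 to 0.496. Without HD mouse 2, 2 were called, P2ry13 (0.69) and P2rx5 (0.75). P2ry12 is also one of the microglia markers above, and the part of microglia in these differences was not tested. P2ry13 was called in LD against Ctr mice too, with 124 ± 23.6 (SD, n = 5) and a log2 difference of 0.61 (limma adjusted p = 0.999), where 1.46% of all genes were called. In the selenium groups limma, edgeR and DESeq2 called 0 genes of these 7 lists in Se_HD or Se_LD against Se_Ctr mice. The limma contrast alone had an unadjusted p under 0.05 for 4 of these genes in Se_HD and 1 in Se_LD mice. The differences between the diets were not tested.

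**Figure D4:**
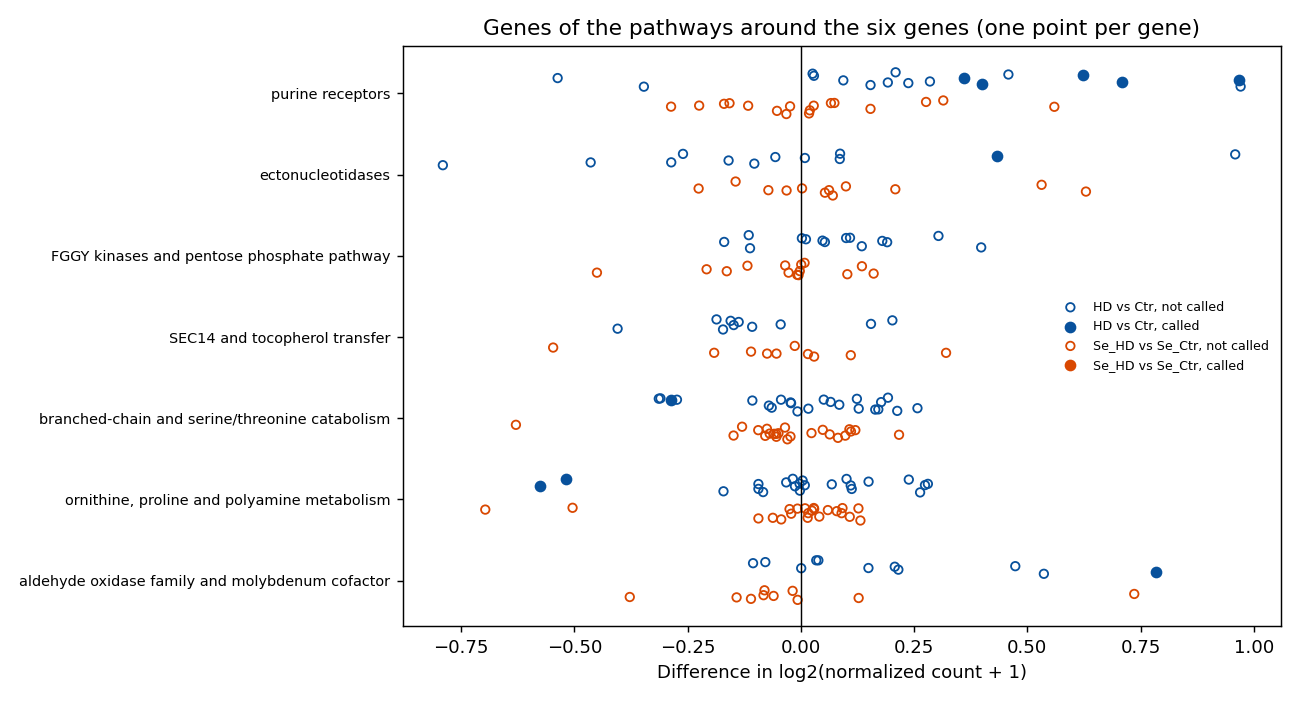
Difference in log2(normalized count + 1) between high-dose and control mice for genes of 7 pathway lists around the 6 genes, with 1 point per gene, filled where called, for HD against Ctr (blue) and Se_HD against Se_Ctr (orange). The filled points are the 5 purine receptors, Entpd1 and Xdh to the right and genes such as Bckdhb and Ass1 to the left, and no orange point is filled.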

How the data were processed

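Hippocampus libraries of 30 male mice were grouped by their treatment label, and 1 library was 1 mouse. Per the study's methods, the authors sequenced stranded single-end libraries of 75 bases, trimmed them with Trim Galore 0.4.2, mapped them with HISAT2 to NCBIM37, counted with featureCounts (strand setting not given) and removed genes with under 10 reads in all. The deposited values are signal values, made by the authors by dividing read counts by DESeq2 size factors. In each library 100% of values were whole multiples of 1 read (tolerance 0.01 read), so reads were recovered. Symbols were found for 21326 of 21412 identifiers. The 6 members and all gene lists were chosen with earlier results of these data known, so the lists are not independent evidence.

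Log2(normalized count + 1) was fitted with limma 3.58.1 (R 4.3.3, variance trend) within each diet's 15 libraries, over genes with a sum of at least 10. A gene was called where both the contrast and the F test of its 3 groups gave an unadjusted p under 0.05, and p-values were adjusted by Benjamini-Hochberg over all genes tested. Exact permutation tests (18, two-sided, unadjusted) covered the selenium groups, and with 5 against 5 mice the smallest possible p is 0.00794. P-values and intervals measure the spread between mice. The named genes are the 6 members, the 3 most similar genes of each by either measure, and the called genes of each list or otherwise its largest difference. Names outside this rule (Aox3, Aox4, Odc1) were added after the values were seen. The values of 1 called list gene are not reported here. On recovered reads edgeR 4.0.16 called 1172 genes and DESeq2 1.42.0 called 1091 in HD against Ctr, against 1019 by limma. In Se_HD against Se_Ctr the numbers were 403, 312 and 405. Scripts were tested on simulated data. Alternatives were pseudocounts of 0.1 and 10, other filters and normalizations, limma without trend, a plain linear model, a single fit of all 30 libraries, a block for each set of 6 consecutive numbers, the contrast alone, adjusted p, and each mouse left out.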

Additional observations from a re-analysis of the deposited data

Results flagged for a closer look

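Fggy in Se_LD mouse 4 lay apart from the other Se_LD mice. It had 10.3 normalized counts where the others had 16.7 to 20.1, and on the scale of log2(normalized count + 1) its gap to the nearest mouse was 0.715 of the range of the group, against Dixon's critical value of 0.71. On normalized counts the gap was 0.65 of the range, below that value. On the log2 scale it was the 1 such case in 36 groups of 5 mice, and chance gives about 1 in 20.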

How the results depend on the processing

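Adjusted over all genes by limma, 0 of the 6 genes were called in Se_HD against Se_Ctr, Se_LD against Se_Ctr or Se_HD against Se_LD, and 0% of all genes tested in each of these contrasts and in LD against Ctr, against 0.13% (26 genes) in HD against Ctr, where edgeR gave 45 genes and DESeq2 196. EdgeR gave 0 genes with an adjusted p under 0.05 in these 4 contrasts, whereas DESeq2 gave 4 in Se_HD against Se_Ctr, 7 in Se_HD against Se_LD and 0 in the other two. At the unadjusted threshold limma called 2, 1 and 1 of the 6 in the selenium contrasts, and so did edgeR and DESeq2. These counts and the later ones of the 6 genes include Fggy, whose calls against Se_Ctr are a description only. Adjusted p for Hrsp12 in Se_HD against Se_Ctr lay between 0.998 and 1 over the alternatives. The share of all genes called was 5.09% in HD, 1.46% in LD, 2.06% in Se_HD and 1.46% in Se_LD against their controls and 2.47% in Se_HD against Se_LD. By the contrast alone these shares were 8.34%, 3.01%, 4.19%, 3.31% and 4.94%, and with all 30 libraries in one fit 7.25%, 2.58%, 1.179%, 0.776% and 1.36%. A mean of at least 10 left 0.954% in LD. In the other alternatives, except with a mouse left out, the counts stayed within 1.5 times those reported.

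With each mouse left out, the share called was 3.63% to 5.86% in HD, 1.27% to 1.84% in LD, 1.65% to 2.84% in Se_HD, 1.16% to 2.83% in Se_LD and 1.77% to 3.53% in Se_HD against Se_LD. The Se_LD count was 553 genes without Se_LD mouse 2 and 436 without Se_Ctr mouse 4, against 288. Of the 6 genes, 1 to 3, 1 and 0 to 2 were called in the selenium contrasts. The sign turned for Hrsp12 (-0.020 to 0.093) and Oat (-0.039 to 0.013) in LD against Ctr, for Hrsp12 (-0.077 to 0.034) and Aox1 (-0.0022 to 0.23) in Se_LD against Se_Ctr, for Entpd2 in Se_HD against Se_Ctr (-0.011 to 0.14), and for Oat (-0.053 to 0.021), Sec14l2 (-0.041 to 0.089) and Entpd2 (-0.13 to 0.019) in Se_HD against Se_LD. Without Ctr mouse 2 the LD difference was 0.15 for Sec14l2 and -0.28 for Fggy, and without LD mouse 2 it was -0.28 for Fggy. For Entpd2 it was -0.19 without Ctr mouse 1. For Sec14l2 in Se_LD against Se_Ctr the difference ran from -0.15 to -0.020 and for Fggy in Se_HD against Se_LD from 0.011 to 0.25. For Sec14l2 in Se_HD against Se_Ctr it ran from -0.10 to -0.034, and for Entpd2 in Se_LD against Se_Ctr from 0.064 to 0.17. The values without HD mouse 2 in the marker and pathway lists, and the correlations with a library left out, were added after the data were seen. The differences whose sign turned were close to 0, and the cause of these changes was not tested.

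Library numbers come in sets of 6 with 1 mouse per group, but the labels do not say what a set shares. Libraries of a set did not deviate together (median r = -0.02 over 75 pairs), and 5 of 30 libraries correlated best with 1 of their own set. With the set as a block, Aox1 in Se_HD against Se_Ctr was called (limma adjusted p = 0.9995), so 3 of the 6 genes were called there and 1 in each other selenium contrast, with 4.94%, 1.41%, 2.03%, 1.51% and 2.45% of all genes. Depth limits Fggy most, and its log2 difference in Se_HD against Se_Ctr ran from 0.69 to 1.31 with the pseudocount. Over the alternatives it ran from 0.59 to 1.14 in Se_LD against Se_Ctr. In LD and HD against Ctr it ran from -0.51 to -0.30 and from -0.53 to -0.29.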
